A study of Mus musculus with 15 samples.

Results

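In embryonic mouse forelimb, 6 short stretches of RNA from 6 genes gave few Mbnl3 crosslinking tags in mutant libraries and many in wild-type libraries. They lie in RNAs assigned to Nfix, Prkar1a, Anxa5, Col6a3, Sept11 (now named Septin11) and Tram1, and are fixed intervals of the mouse build mm9. The sites were chosen by their tag counts in mutant against wild-type forelimb, in earlier results of the same data, so that this difference is described below without a test. The 6 sites are among 191766 clusters of overlapping tags in the forelimb libraries. They hold 9 of these clusters, of which 7 are among the 276 clusters with enough tags to be fitted, and the other 2 lie in the Sept11 site. Gene names come with the list of sites: the chromosome matched the RefSeq entry (build GRCm38.p6) for all 6 genes, and the strand for the 5 genes whose strand was available, all but Tram1. Exon, intron and UTR positions were not analysed here.

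Muscleblind proteins are zinc finger proteins that bind single-stranded RNA, often at short elements containing YGCY, and act in alternative splicing, in RNA localisation and in mRNA turnover. Mbnl3 is the family member best known from placenta and from embryonic and regenerating muscle. HITS-CLIP fixes protein to RNA with ultraviolet light, trims the RNA with RNase, precipitates the protein with an antibody and sequences the attached fragments, so that a tag marks a piece of RNA that was recovered with the protein. The number of tags at a place depends on how much of that RNA the tissue holds as well as on binding. The 6 genes belong to no single pathway. Nfix is a transcription factor of the nuclear factor I family with a known role in fetal myogenesis. Prkar1a encodes the type I alpha regulatory subunit of protein kinase A, which holds the catalytic subunits inactive until cAMP binds. Anxa5 and Sept11 encode proteins at membranes and in the cytoskeleton, and Tram1 and Col6a3 serve secretion and the extracellular matrix.

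The mutant libraries came from BL6 forelimbs at E15 (15 days post coitum) labelled Mbnl3 ΔE2/ΔE2 and titled Mbnl3 KO, the reference libraries from BL6 WT forelimbs of the same age, with 3 libraries per genotype and 4 forelimbs of 2 embryos pooled in each. The growth label speaks of female WT mice, and the sex of the CLIP embryos is not labelled further. The series title calls the animals isoform knockouts, and which Mbnl3 proteins remain in them was not measured in the files used here. C2C12 cells, a mouse myoblast line labelled WT, were grown in 20% FBS with 5 plates per replicate, and their 3 libraries were combined by the authors into 1 set. All forelimb and C2C12 libraries were made with the same anti-Mbnl3 antibody, and no library without antibody was used here. The deposited tags name no genes, so the tissue labels could not be checked against marker genes.

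Depth was low and uneven. ΔE2 libraries held 67279, 40531 and 59115 tags and WT libraries 35413, 74123 and 124309, while the C2C12 set held 550124 distinct tags. A tag here is a molecule, that is a unique combination of position, strand and 5-base barcode, and every forelimb barcode ended in the same base, which left at most 256 of them. Libraries shared molecules. ΔE2 replicates 2 and 3 had 33916 in common, 83.7% and 57.4% of their tags, so they were counted as 1 library of 65730 tags (called ΔE2 2+3), which leaves 2 ΔE2 and 3 WT libraries. The deposited ΔE2 replicate 3 combines 2 sequencing lanes, and 67.3% of the tags of lane 7 but 19.8% of those of lane 8 were also in replicate 2. Sharing also crossed the genotypes: 35.5% of the tags of ΔE2 replicate 1 and 7.47% of those of ΔE2 2+3 were molecules also listed in a WT library. Among WT libraries, replicates 2 and 3 shared 32.4% and 19.3% of their tags, and replicate 1 had 29.8% of its tags in replicate 2 and 31.3% in replicate 3. All 3 were kept apart.

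At the Nfix site, 99 nt at chr8:87228858-87228956 (minus strand), ΔE2 replicates 1, 2 and 3 had 1, 1 and 1 tags, and WT replicates 1, 2 and 3 had 15, 13 and 25. The tags of ΔE2 replicates 2 and 3 are a single shared molecule. In CPM, the tags per 1000000 tags of the library, the level was 14.9 in ΔE2 replicate 1 and 15.2 in ΔE2 2+3, against 424, 175 and 201 in the WT libraries. Each genotype formed its own range with no overlap, and WT replicate 1 stood well above the other WT libraries. The mean was 15.0 ± 0.248 CPM in ΔE2 (SD, n = 2) and 267 ± 136 in WT (SD, n = 3), a difference of 17.7-fold that rests on 2 ΔE2 molecules.

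The Prkar1a site covers 120 nt at chr11:109528893-109529012 (plus strand). It had 2, 0 and 1 tags in ΔE2 replicates 1, 2 and 3, against 9, 14 and 17 in the WT replicates. In CPM, ΔE2 replicate 1 had 29.7 and ΔE2 2+3 had 15.2, against 254, 189 and 137 in WT. All ΔE2 values again lay below all WT values. Means were 22.5 ± 10.3 in ΔE2 (SD, n = 2) and 193 ± 58.8 in WT (SD, n = 3), an 8.60-fold difference, or 3.10 lower on the log2 scale. Because ΔE2 replicate 2 had no tag, the log2 ratio was -3.70 without ΔE2 replicate 3.

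Annexin A5 binds phosphatidylserine in membranes when calcium is present. Its site is 149 nt long, at chr3:36348108-36348256 (minus strand), and it had 4, 2 and 1 tags in the ΔE2 replicates and 12, 22 and 26 in the WT replicates. This came to 59.5 CPM in ΔE2 replicate 1 and 30.4 in ΔE2 2+3, against 339, 297 and 209 in WT. The WT libraries differed by 1.62-fold at most, less than the gap between the genotypes. Means were 44.9 ± 20.5 in ΔE2 (SD, n = 2) and 282 ± 66.2 in WT (SD, n = 3), a 6.27-fold difference.

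Septin 11 is a GTP-binding protein that assembles with other septins into filaments. Its site is the longest, 645 nt at chr5:93602358-93603002 (plus strand), with 12, 4 and 8 tags in the ΔE2 replicates and 21, 43 and 64 in the WT replicates. Levels were 178 CPM in ΔE2 replicate 1 and 122 in ΔE2 2+3, against 593, 580.1 and 515 in WT. The WT libraries were closest to each other here, within 1.15-fold. Means were 150 ± 40.1 in ΔE2 (SD, n = 2) and 563 ± 41.9 in WT (SD, n = 3), or 3.75-fold. The site holds a pair of dense clusters at its ends and little between them. The first, which ends at 93602489, had 4 tags in each ΔE2 library and 7, 18 and 29 in WT. The last, which begins at 93602896, had 6 and 2 tags in ΔE2 replicate 1 and ΔE2 2+3 and 12, 21 and 31 in WT. Both ends showed the difference. Of the other clusters, that from 93602494 to 93602577 had 4 ΔE2 and 9 WT tags, and that from 93602705 to 93602739 had 0 ΔE2 tags and 1 WT tag.

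TRAM1 is a membrane protein of the endoplasmic reticulum that sits beside the Sec61 channel through which secreted proteins enter. At its site, 143 nt at chr1:13555088-13555230 (minus strand), the ΔE2 replicates had 7, 5 and 5 tags and the WT replicates 19, 26 and 33. Levels were 104 CPM in ΔE2 replicate 1 and 91.3 in ΔE2 2+3, against 537, 351 and 265 in WT. The ranges did not overlap, and the spread lay mostly among the WT libraries. Means were 97.7 ± 9.02 in ΔE2 (SD, n = 2) and 384 ± 139 in WT (SD, n = 3), a 3.93-fold difference.

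Collagen VI is a microfibrillar collagen around muscle fibres and in skin and tendon, and Col6a3 encodes its alpha 3 chain, in which human mutations cause Ullrich and Bethlem myopathies. The site is 231 nt long, at chr1:92672542-92672772 (minus strand). Its tags numbered 4, 3 and 4 in the ΔE2 replicates and 21, 36 and 44 in the WT replicates, or 59.5 CPM in ΔE2 replicate 1 and 76.1 in ΔE2 2+3 against 593, 486 and 354 in WT. The ΔE2 libraries lay close together, far below the lowest WT library. Means were 67.8 ± 11.7 in ΔE2 (SD, n = 2) and 478 ± 119.7 in WT (SD, n = 3), a 7.05-fold difference.

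**Figure D1:**
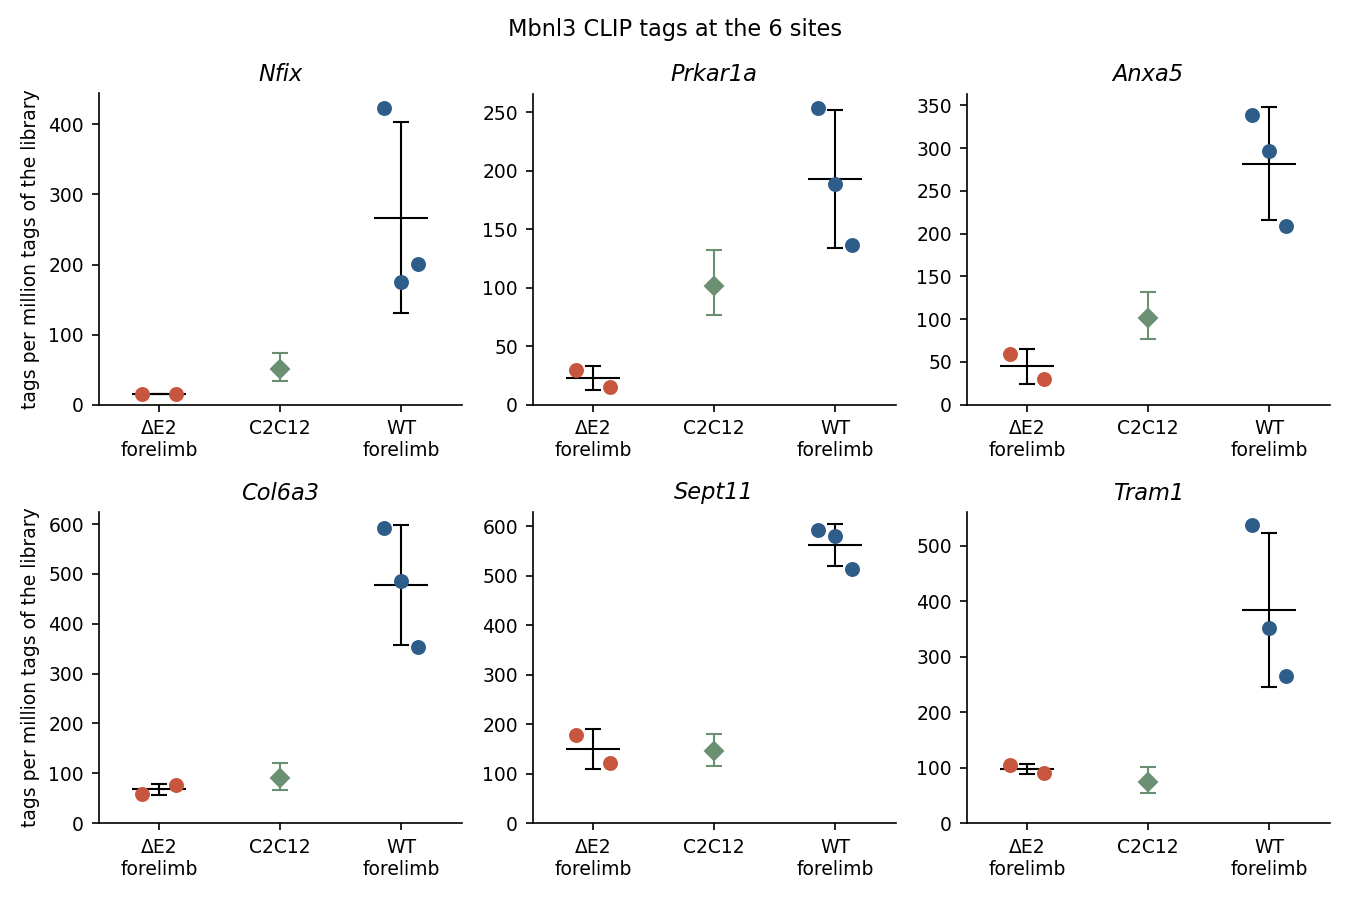
CPM (tags per 1000000 tags of the library, y axis) at each site. Points are libraries (ΔE2 replicate 1 and ΔE2 2+3; 3 WT), bars are the mean ± SD, and the diamond is the combined C2C12 set with its 95% exact Poisson interval; WT runs from 137 to 593 and ΔE2 from 14.9 to 178, with no overlap within any site.

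With 53 tags in ΔE2 and 460 in WT over the 6 sites, counting error is large in ΔE2 at every one of them. The genotypes did not overlap at 6 of 6 sites, with the 5 libraries used here and with the 6 as labelled. Among the 276 fitted clusters, 46.4% had both ΔE2 libraries below all WT libraries on this scale, or 28.6% after TMM scaling. Depth moved with the level inside the WT group: WT replicate 1, the shallowest library, was the highest at 6 of 6 sites, and WT replicate 3, the deepest, was the lowest at 5 of 6. The part of depth in the levels was not tested; the ΔE2 libraries, at 67279 and 65730 tags, lie between WT replicates 1 and 2. In whole forelimb, fewer cells of a type and less RNA per cell cannot be told apart, and neither can be told apart from less binding.

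On the scale of the whole table, the fit of all 276 clusters (edgeR, TMM scaling) called 62 of them, 22.5%, of which 44 were higher and 18, or 6.52%, were lower in ΔE2. All 7 fitted clusters at the sites are among the 18, which is how they were chosen, and the other 11 lie elsewhere. The log2 folds, ΔE2 over WT, were -3.35 (SE 0.71) for Nfix, the lowest of all 276, -2.40 (SE 0.64) for Prkar1a, the next lowest, -2.20 (SE 0.41) for Col6a3 and -2.02 (SE 0.47) for Anxa5. The ends of the Sept11 site had -1.41 (SE 0.44) and -1.69 (SE 0.44), and Tram1 had -1.32 (SE 0.40). Each SE given here was back-calculated from the log2 fold and its F statistic. DESeq2, fitted to the same clusters, gave larger SE, from 0.67 at Tram1 to 1.22 at Nfix. TMM scaling sets the libraries level over most clusters: the median cluster had a log2 fold of -0.08 with it and -0.57 when scaled to all tags of the library, as the CPM are. The split of calls moved with the scaling as well, to 22 higher and 58 lower with all tags of the library, and to 28 higher and 46 lower with the tags in fitted clusters. With WT replicates 2 and 3 counted as 1 library, 0 of 238 clusters were called in edgeR, with 72 at an unadjusted p under 0.05, and DESeq2 called 35 on the main libraries, 2 of them among the 7. Without WT replicate 2 there were 16 calls of 245 clusters and without WT replicate 3 there were 22 of 238. Clusters at the sites made up 2 and 4 of these calls. Without ΔE2 replicate 1, ΔE2 is the single library ΔE2 2+3, which is then assumed to vary like the WT libraries; that gave 63 calls of 433 clusters, 2 of them at the sites. With tags collapsed by position, 62 of 232 clusters were called, 19 of them lower in ΔE2, among them 5 of the 7 at the sites. Without the filter on low counts, 19 of 191766 were called, 8 of them lower in ΔE2, among them 4 of the 7.

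**Figure D2:**
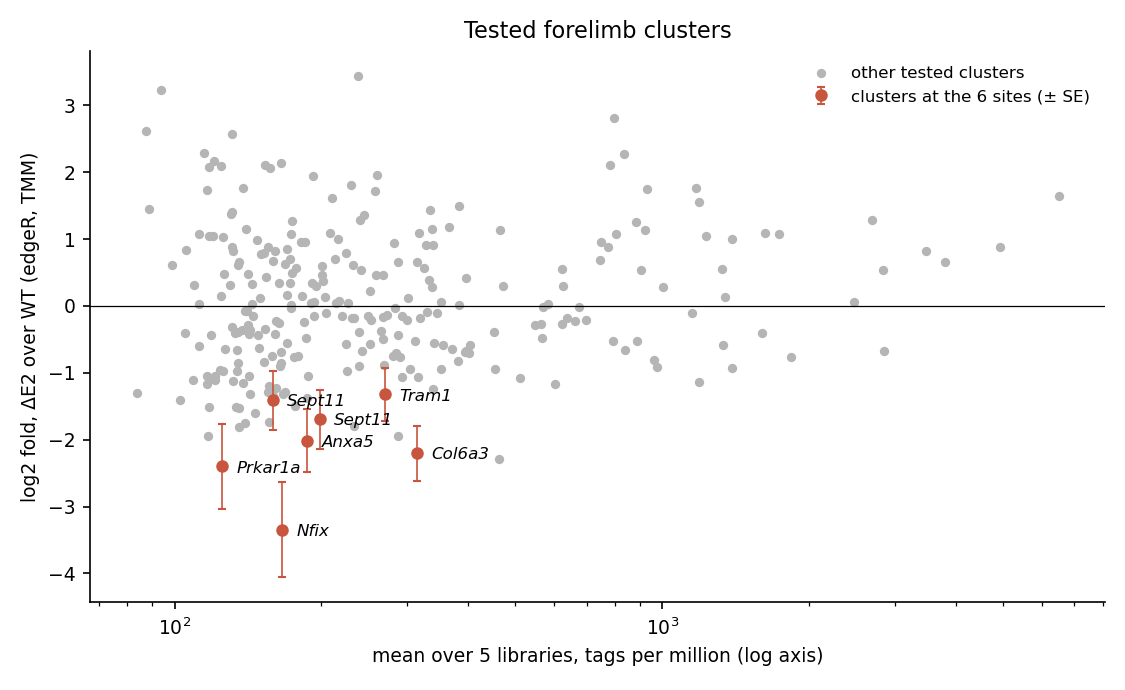
Log2 fold of ΔE2 over WT forelimb (y axis, edgeR with TMM scaling) against the mean level of each of the 276 fitted clusters (x axis, CPM, log axis). Red points are the 7 clusters at the 6 sites, between -3.35 and -1.32, with SE bars back-calculated from the F statistic. Grey points are all others.

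The tags around each site on the same strand, with the site itself left out, show whether the rest of the local RNA had fewer tags too. Within 1000 nt, the mean level outside the site was lower in ΔE2 at 6 of 6 genes, with a median log2 ratio of -1.20. The libraries of the genotypes did not overlap there at 4 of the 6. Of the 276 fitted clusters, 66.7% had a lower mean in ΔE2 on this scale, and 46.4% were lower in ΔE2 without overlap. The site had the lower ratio at all 6, which its choice for few ΔE2 tags makes likely. Within 10000 nt, the median outside the site was -1.03, against a median of -2.73 at the sites and -0.57 over all fitted clusters. These windows can reach into neighbouring genes, since no mm9 annotation was used. They use the same libraries and the same contrast as the choice of the sites and are given without a test.

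Nfix and Prkar1a showed the widest gap between site and surroundings, where the log2 ratio at the site minus that within 10000 nt around it was -2.67 and -2.62. Within 10000 nt of the Prkar1a site, 20 tags in ΔE2 replicate 1 and 21 in ΔE2 2+3 stood against 12, 36 and 58 in WT, or 308 ± 15.7 CPM in ΔE2 (SD, n = 2) and 430.4 ± 79.8 in WT (SD, n = 3). The site took 9.09% and 4.55% of local tags in the ΔE2 libraries, against 42.9%, 28.0% and 22.7% in WT. A second cluster, 344 nt downstream of the site from 109529356 to 109529551, had 13 and 9 tags in ΔE2 and 8, 22 and 31 in WT. Its log2 fold was -0.16 (SE 0.34) and it was not called, beside -2.40 for the site in the same RNA strand. The Nfix site took 6.67% of local tags in each ΔE2 library and 35.7%, 27.7% and 27.2% in WT. Outside it, 10000 nt around, levels were 211 ± 3.47 CPM in ΔE2 (SD, n = 2) and 587 ± 157 in WT (SD, n = 3). The neighbour of the Nfix site with most tags, 91 nt downstream from 87228631 to 87228767, had 5 tags in each ΔE2 library against 4, 11 and 14 in WT, so that it outnumbered the site in ΔE2 and not in WT. The next, 409 nt upstream from 87229365 to 87229517, had 3 ΔE2 and 18 WT tags, or 22.5 and 99.5 CPM, and went the way of the site.

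At Col6a3 the site took 17.4% and 23.8% of tags within 10000 nt in ΔE2 and 56.8%, 55.4% and 47.3% in WT, again without overlap. Its neighbour with most tags, 8452 nt downstream from 92663942 to 92664090, had 9 ΔE2 tags and 23 WT tags, or 67.6 and 84.7 CPM on average. Beside it, 8717 nt downstream of the site, another had 6 ΔE2 and 20 WT tags, or 44.9 and 76.2 CPM. Nearest to the Col6a3 site, 130 nt downstream from 92672324 to 92672412, a cluster had 4 ΔE2 and 19 WT tags, or 30.1 and 92.4 CPM, so that fewer ΔE2 tags were found beside the site as well. None of these neighbours had enough tags to be fitted. The other genes showed less contrast with their surroundings. Sept11 had 26.1% and 40.0% of local tags at the site in ΔE2, against 37.5%, 42.6% and 39.5% in WT, which overlap. Just upstream, by 103 nt, a cluster from 93602001 to 93602255 had 17 and 6 tags in ΔE2 and 14, 22 and 36 in WT, with a log2 fold of -0.37 (SE 0.38). Downstream by 201 nt, a smaller cluster had 6 ΔE2 and 31 WT tags, or 44.9 and 137 CPM. Tram1 had 26.9% and 42.9% in ΔE2 and 57.6%, 48.1% and 42.3% in WT, which overlap narrowly. Its neighbours with most tags, 1023 nt upstream and 6 nt downstream, had 9 ΔE2 against 30 WT tags and 6 ΔE2 against 23 WT tags. At the downstream cluster all 6 ΔE2 tags were in ΔE2 replicate 1 and 0 in ΔE2 2+3. Outside the Tram1 site, within 1000 nt, these libraries were far apart, at 163 and 15.2 CPM, against 226, 175 and 209 in WT. For Anxa5 there was too little outside the site to compare: 5 ΔE2 and 26 WT tags within 10000 nt, none of them in WT replicate 1. The shares of the genotypes did not overlap at Nfix, Prkar1a and Col6a3, 3 of 6 genes, within 10000 nt. The same held for 30.1% of the 276 fitted clusters, and since the sites were chosen for few ΔE2 tags, a low ΔE2 share follows in part from the choice. Within 1000 nt it was 3 of 6, beside 22.8% of fitted clusters, and within 50000 nt 4 of 6, beside 36.2%.

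**Figure D3:**
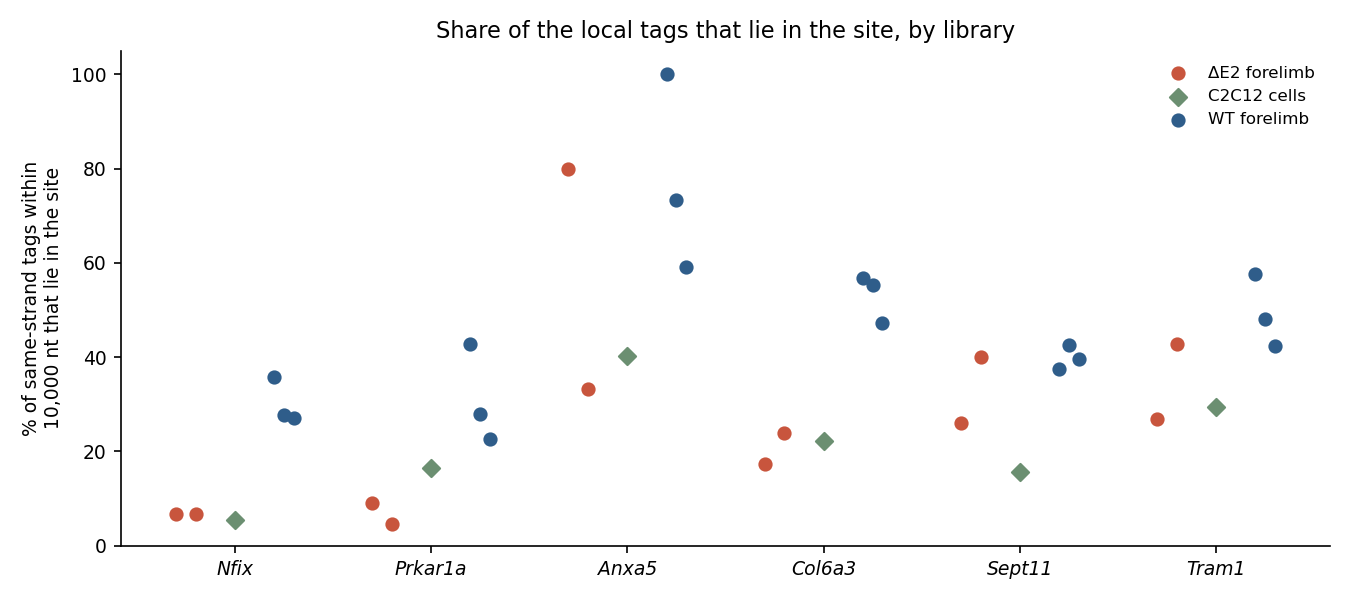
Percentage of same-strand tags within 10000 nt that lie inside the site (y axis) for each gene, by library; red ΔE2, green combined C2C12, blue WT. ΔE2 and WT points are apart at Nfix, Prkar1a and Col6a3 and overlap at Anxa5, Sept11 and Tram1.

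The opposite strand held few forelimb tags. Within 1000 nt of the sites it held 0 tags in both genotypes and in C2C12 at 6 of 6 genes. Within 10000 nt the highest forelimb counts were at Sept11, with 3 ΔE2 and 6 WT tags, and at Nfix, with 0 ΔE2 and 5 WT tags.

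In shape, the WT sites were built from many different molecules. The 460 WT tags came from 378 distinct molecules, and the distinct 5′ ends ranged from 24 at Prkar1a to 63 at Sept11. The commonest 5′ end took 24.4% of WT tags at Tram1, the highest share, and 5.47% at Sept11, the lowest. Counted from 1 at the 5′ end of the site, WT coverage was highest at base 63 of Anxa5, with 34 of 60 tags, at bases 69 to 70 of Tram1, with 60 of 78, and at bases 197 to 204 of Col6a3, with 35 of 101. WT tags had median lengths from 27 nt at Anxa5 to 35 nt at Col6a3. With 2 to 20 tags per site in ΔE2, no shape can be given for that genotype, although its tags covered 81.1% of the bases at Tram1 and 48.5% at Nfix.

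**Figure D4:**
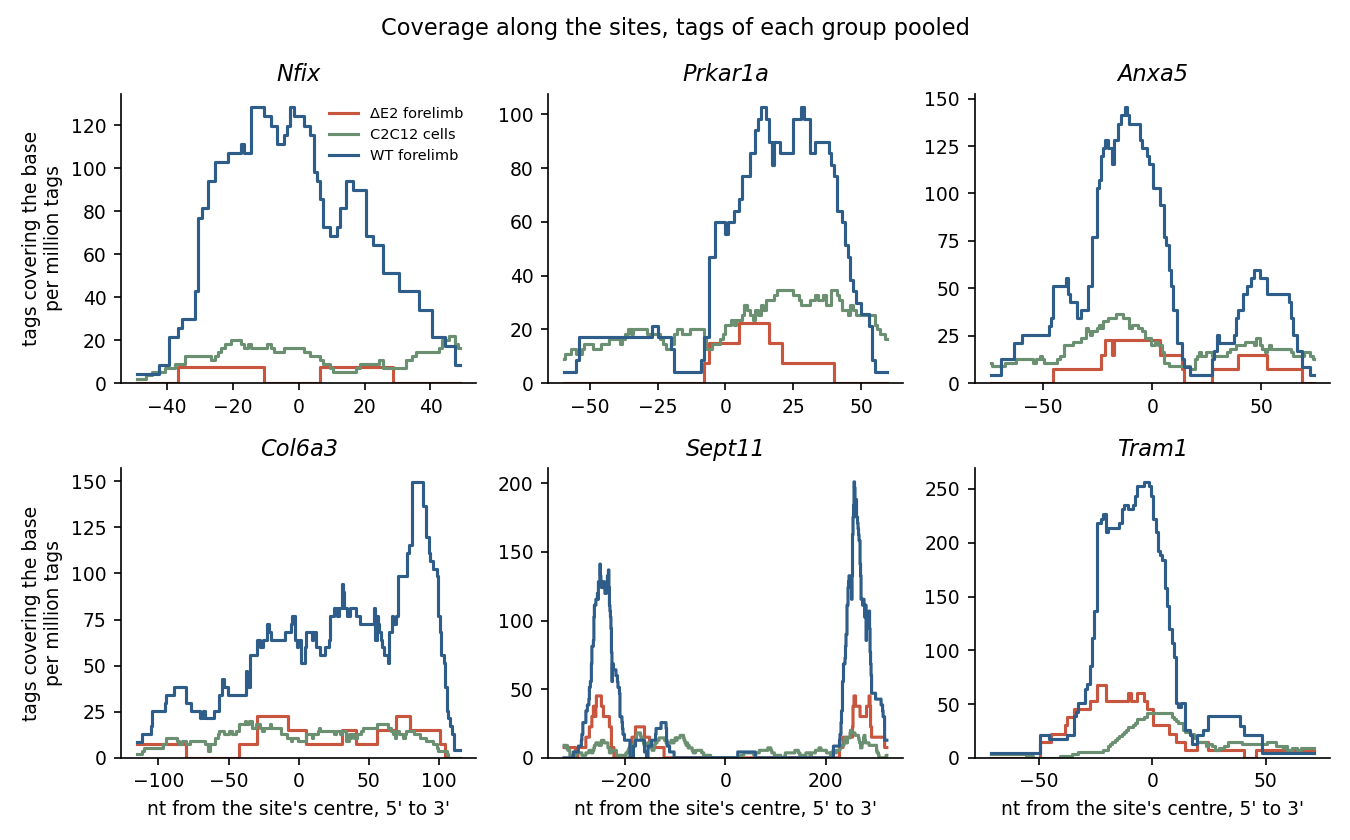
CPM covering each base (y axis), pooled over the libraries of ΔE2 (red), C2C12 (green) and WT (blue), against the distance from the centre of each site in nt (x axis, 5′ to 3′ on the transcript strand). WT peaks near the centre of Anxa5 and Tram1, at both ends of Sept11 and near the 3′ end of Col6a3, where ΔE2 stays low.

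Reads behind the tags are described next for the ΔE2 libraries. Of the 30 tags of ΔE2 replicate 1 at the sites, 21 (70%) were molecules also listed in a WT library, and 20 of these had more reads there. Over all fitted clusters, 2797 of the 7565 tags of ΔE2 replicate 1 were also in WT. For ΔE2 2+3 the share was 6 of 23 at the sites (26.1%), against 14.7% of 6990 tags over all fitted clusters. The sites were chosen for few ΔE2 and many WT tags. A higher shared part at the sites, with more reads in WT, therefore follows in part from the choice. At Sept11, 9 of the 12 tags of ΔE2 replicate 1 were shared, with 23 reads in that library and 11801 reads for the same molecules in WT. At Tram1 it was 4 of 7 tags, with 8 reads in ΔE2 replicate 1 and 6655 in WT.

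Anxa5 was the one site where every ΔE2 tag was also listed in WT. Its 4 tags in ΔE2 replicate 1 had 12 reads there, against 1760 reads in WT. ΔE2 2+3 held 2 of its molecules with 19177 reads, 99.99% of them from 1 molecule, while the same molecules had 31 reads in WT. In raw reads, not scaled to read depth, Anxa5 had 19177 in ΔE2 2+3 against 1529, 1877 and 1882 in the WT replicates. Read depth was unlike: ΔE2 replicates 2 and 3 held 1.08e+07 and 2.53e+07 reads, and the WT replicates 2.54e+06, 6.79e+06 and 7.68e+06. The raw reads therefore do not rank the libraries. By molecules, in CPM, ΔE2 2+3 was the lowest library at Anxa5. The Nfix site had no shared molecule in either direction between the genotypes. Col6a3 had 3 and Prkar1a 2.

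Shared molecules were then given only to the library with most of their reads, by raw reads not scaled to read depth. Molecules shared within a genotype were treated in the same way, which left 45 of 53 WT tags at Nfix and 45 of 60 at Anxa5. The log2 ratio of CPM, ΔE2 over WT, was then -5.02 at Anxa5 (-2.65 with all molecules), -4.82 at Prkar1a (-3.10) and -2.72 at Sept11 (-1.91). It was -4.07 at Nfix (-4.15), -3.10 at Col6a3 (-2.82) and -2.52 at Tram1 (-1.98). The Anxa5 and Prkar1a values each rest on 1 ΔE2 tag, and lower values follow from the reads just given, since most shared molecules of ΔE2 replicate 1 had more reads in WT. How molecules came to be listed in libraries of both genotypes was not tested; a barcode set of 256 also allows different molecules to coincide.

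**Figure D5:**
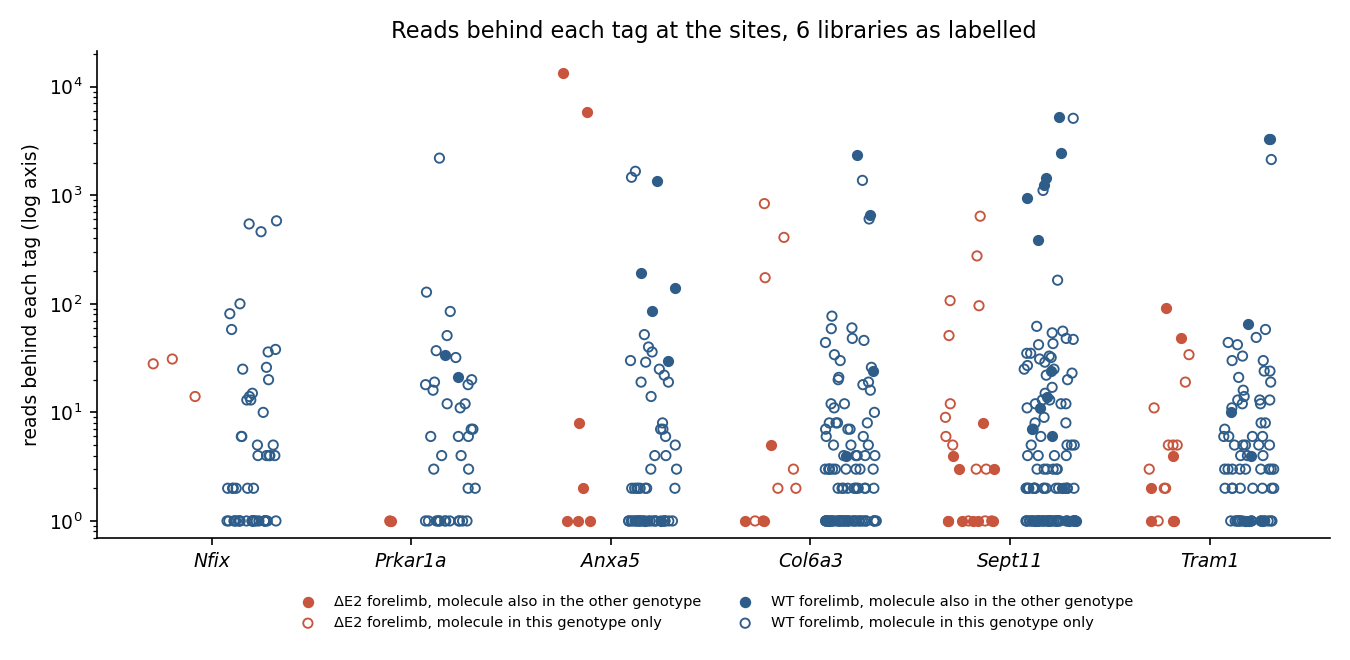
Reads behind each tag (y axis, log axis) at the sites in the 6 libraries as labelled; red ΔE2, blue WT, filled where the same molecule is listed in the other genotype. ΔE2 tags at Nfix are all open circles, and at Anxa5 all are filled, with 1 molecule at 13318 and 5858 reads in ΔE2 replicates 3 and 2.

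The list of sites was drawn up for counting in C2C12 myoblasts as well, so that the presence of C2C12 tags is a description too. Tags were present there at 6 of 6 sites, while 55 of the 276 fitted forelimb clusters had none. C2C12 had 50.9 CPM at Nfix (95% exact Poisson interval 33.8 to 73.6), from 28 tags, against a WT forelimb mean of 267. Prkar1a had 102 (76.9 to 132) in C2C12, from 56 tags, against 193 in WT, and Anxa5 also had 56 tags in C2C12, against a WT mean of 282. Levels in C2C12 were 90.9 at Col6a3 (67.5 to 119.8), 145 at Sept11 (115 to 181) and 74.5 at Tram1 (53.5 to 101), against 478, 563 and 384 in WT. C2C12 was below the WT mean at 6 of 6 sites, by 1.90-fold at Prkar1a and 5.25-fold at Col6a3, and above the ΔE2 mean at 4 of 6, all but Sept11 and Tram1. Since the sites were chosen for few ΔE2 tags, a level above the ΔE2 mean follows in part from the choice. How many fitted clusters had C2C12 above the ΔE2 mean was not counted.

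That C2C12 was lower is common to clusters found in forelimb: of the 221 fitted clusters with a C2C12 tag, 216 were below the WT mean, with a median log2 ratio of -2.72, against -2.16 over the 6 sites. The median fitted cluster had 27.3 CPM in C2C12, less than any of the 6 sites. The C2C12 set is 1 combined file of 26 to 30 nt tags, and forelimb tags were 19 to 38 nt long, so no test was made. RNA levels and the breadth of expression of the 6 genes were not measured in the files used here, and the tags show only that all 6 RNAs were recovered from both forelimb and myoblasts.

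The share of local C2C12 tags that lay inside the sites was lower than in WT forelimb. The borders of the sites come from forelimb tags, and the sites were chosen with WT forelimb counts. A lower C2C12 share therefore follows in part from the choice, and the C2C12 share over all fitted clusters was not counted. The Nfix site took 5.53% of C2C12 tags within 10000 nt, from 478 tags outside it, beside 6.67% in each ΔE2 library and 27.2% to 35.7% in WT. Col6a3 had 22.1% in C2C12, beside 17.4% and 23.8% in ΔE2 and 47.3% to 56.8% in WT. Prkar1a had 16.6% in C2C12, between the genotypes. Anxa5 had 40.3% in C2C12, beside 80.0% and 33.3% in ΔE2 and 59.1% to 100% in WT. Sept11 had 15.6% in C2C12 and Tram1 29.5%. C2C12 coverage was highest at bases 59 to 61 of the Anxa5 site and at bases 70 to 80 of Tram1, close to the WT forelimb maximum. The maxima were also close at Prkar1a, between bases 80 and 101 (74 and 89 in WT), and at Sept11, at bases 573 to 574 (580 in WT). The Sept11 shape differed, since the C2C12 maximum held only 11 of 80 tags. C2C12 had 20, 23 and 21 tags at the clusters that begin at 93602358, 93602494 and 93602896, against 54, 9 and 64 in WT. At Col6a3 the C2C12 maximum was at bases 78 to 82, away from that of WT. At Nfix it was at bases 96 to 97 (21.8 CPM), against between 36 and 48 in WT. C2C12 coverage of Nfix was nearly as high, 20.0 CPM, at -20 to -18 nt from the site's centre, nearer the WT maximum.

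RNA-seq of the same genotypes was used through the authors' deposited table of changed cassette exons, whose header names another muscleblind gene for the mutant where the labels name Mbnl3. None of the 6 genes is among its 84 genes, and it lists no member of the nuclear factor I, protein kinase A, annexin, collagen VI, septin or translocon gene lists either (0 in each). The authors' deposited table holds selected events, so the absence of a gene says nothing about the level of its RNA.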

How the data were processed

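The submitters' processing notes name Novoalign and the build mm9 for the CLIP reads. The authors deposited 1 line per tag, with a score whose meaning is not stated and which was not used; tag counts were made here from the lines, by overlap of at least 1 nt on the strand. Repeated molecules of the combined C2C12 file were counted once. RNA-seq was aligned with TopHat 1.3.2, per the submitters' processing notes, and the authors' exon table gives estimated counts as group totals, an odds ratio, and p-values by Fisher's test, per the file headers; none of these values is printed. The members, the gene lists and the counting of ΔE2 replicates 2 and 3 as 1 library were chosen with earlier results of these data known.

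Overlapping tags of the forelimb libraries were merged into clusters. Clusters were fitted with edgeR 4.0.16 in R 4.3.3 (filterByExpr with a minimum count of 10, TMM, quasi-likelihood test, calls at 0.05 after Benjamini-Hochberg adjustment), after a test on simulated data; DESeq2 1.42.0 was an alternative. Fitted clusters held 10.6% to 14.8% of the tags of a library. Levels at the sites (CPM) are tags per 1000000 tags of the library. The genes named are the 6 members, and a neighbour was named where it was the densest or was fitted, a choice made after its values were seen. Intervals cover counting error only, and p-values measure only the spread between these samples. The mm9 sequence of the sites was not used here. Python 3.11.15 with pandas 2.3.3 and scipy 1.17.1 did the rest.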

Additional observations from a re-analysis of the deposited data

How the results depend on the processing

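Direction held at 6 of 6 sites under each alternative run, as their choice for few ΔE2 tags makes likely, with 72 of 96 values within the spread between replicates; the cause of the other moves was not tested unless given here. On the log2 scale, ΔE2 over WT, TMM scaling gave -3.55 at Nfix, -2.58 at Prkar1a, -2.13 at Anxa5, -2.23 at Col6a3, -1.38 at Sept11 and -1.40 at Tram1. Shared molecules given to 1 library gave -4.82 at Prkar1a, -5.02 at Anxa5, -2.72 at Sept11 and -2.52 at Tram1. Left out altogether, an alternative chosen after seeing the data, they gave -4.68 at Prkar1a, -3.39 at Anxa5 (no ΔE2 tag remains, so this is the bound set by 3 tags over the group), -3.24 at Col6a3, -2.66 at Sept11 and -2.58 at Tram1. Molecules of at least 2 reads gave -3.56 at Nfix and -2.43 at Prkar1a, where the Prkar1a value is also such a bound. Tags collapsed by 5′ end gave -1.66 at Sept11, the site widened by 50 nt gave -3.21 at Nfix, and the 6 libraries as labelled gave -3.64 at Prkar1a.

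Without 1 replicate, values ran from -4.38 to -3.65 at Nfix, -3.70 to -2.86 at Prkar1a, -3.21 to -2.37 at Anxa5, -2.99 to -2.63 at Col6a3, -2.21 to -1.84 at Sept11 and -2.18 to -1.66 at Tram1. The count of 62 called clusters ran from 16 to 90 without 1 replicate, and was 35 with DESeq2, 19 without the filter (191766 clusters tested) and 0 with WT replicates 2 and 3 counted as 1, while leaving out WT replicate 1, which also leaves 2 WT libraries, gave 90; the cause was not tested. The 6 labelled libraries gave 85 of 212, and 64 with the replicate number as a block, with 6 and 5 of 6 clusters at the sites among them; same-numbered libraries did not deviate together (correlations of -0.33, -0.16 and -0.23 over 276 clusters), and 0 of 6 libraries correlated best with its own number. The 18 values for C2C12 stayed within counting error. In ΔE2, 2 to 20 tags per site set the precision.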
